A study of Mus musculus with 4 samples.

Results

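The genes described here are 10 of the 4167 genes with complete lines in the deposited expression table. They were chosen by name for their role in making or running the ribosome. No measured value entered the rule, but earlier results of these data were known when the genes were chosen. Rpl7, Rpl7a, Rpl31 and Rpl37a encode proteins of the large subunit of the cytosolic ribosome. Eef1b2 and Eif5b encode translation factors. Ncl, Nop58, Wdr12 and Wdr75 encode nucleolar proteins that take part in building ribosomes. The other genes of these families in the table were few, because its lines covered chromosome 1 and the start of chromosome 2, and genes elsewhere were not analysed here.

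RNA was measured in long-term haematopoietic stem cells (LT-HSCs), the rare bone marrow cells that maintain all blood lineages, sorted from tibia and femur of mice. The wild-type (WT) group and the group from conditional Atf4 knockout mice (ATF4 KO) had 2 libraries each, made from polyadenylated RNA by a protocol derived from Smart-seq2, which amplifies very small amounts of RNA. The driver of the conditional deletion, and the strain, age and sex of the mice, are not given in the sources used here. Nor do the labels say whether each library came from a separate animal, so the p-values measure only the spread between these libraries, which may be technical.

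A ribosome is assembled in the nucleolus, where ribosomal RNA is transcribed, cut and modified while ribosomal proteins bind to it. Stem cells of the blood are known for a low rate of protein synthesis, and ATF4 is a transcription factor that the integrated stress response raises and that acts on genes of amino acid supply. The mRNAs of ribosomal proteins and of several translation factors begin with a run of pyrimidines, through which mTOR signalling sets their translation.

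The members' RefSeq promoter entries on GRCm38.p6 (250 bases before to 50 after the start) are shown here for their pyrimidine runs. An entry was found for 9 of the 10 genes, without Rpl7. Within 50 bases either side of the start the longest run of C and T was 21 bases in Rpl7a, a length that 0.913% of all 32851 promoter entries reached. It was 13 bases in both Rpl31 and Rpl37a, which 6.74% of entries reached. Counted from 0 at the start, the run lay at -14 to 6 in Rpl7a, at -18 to -6 in Rpl31 and at 23 to 35 in Rpl37a, so that only that of Rpl7a spanned the annotated start. These 30-base pieces read 5′ to 3′, with the run in capitals.
Rpl7a: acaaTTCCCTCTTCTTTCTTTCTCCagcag
Rpl31: tcgccacaCCTCTTCCTCCTCgcctccccg
Rpl37a: gcattgcgTCCCTTCCTCTTCggacttggg
The pieces lie on the plus strand at chr2:26910789-26910818, chr1:39367825-39367854 and chr1:72711275-72711304. In the translation factors Eef1b2 and Eif5b the longest run was 5 bases, which 86.5% of entries reached. The entries of Ncl, Nop58 and Wdr75 held runs of 8, 6 and 5 bases, and the 3 entries of Wdr12 runs of 5, 9 and 12 bases. The run of 12 bases, a length that 9.17% of entries reached, was close in length to those of Rpl31 and Rpl37a. The motif CACGTG, searched on both strands, was in none of the 9 genes' entries and in 7.15% of all entries. TGATGNAA, a pattern of the kind ATF4 binds, searched on both strands, was likewise in none of the 9 and in 3.97% of all entries.

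Ncl and Nop58 also carry small nucleolar RNAs in their introns, which guide the modification of ribosomal RNA. NOP58 is itself a core protein of the particles that box C/D small nucleolar RNAs form. One such RNA of each gene is shown from the GENCODE M21 transcripts, 5′ to 3′, with the C box (TGATGA) and the D box (CTGA) in capitals.
Snord82, in Ncl: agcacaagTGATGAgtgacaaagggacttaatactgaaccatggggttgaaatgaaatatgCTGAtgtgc
Snord11, in Nop58: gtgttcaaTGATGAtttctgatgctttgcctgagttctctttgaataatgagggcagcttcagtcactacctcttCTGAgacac
On GRCm38 they lie at chr1:86356261-86356330 on the minus strand and chr1:59704790-59704873 on the plus strand. Of 12 small nucleolar RNA genes annotated inside Rpl7a, Eef1b2, Ncl and Nop58, 8 were listed at 0 in all 4 libraries, these 2 among them. The other 4 had between 1 and 10 reads in a WT library and 0 in ATF4 KO. The libraries were made from polyadenylated RNA, so these rows do not measure the level of such RNAs.

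The deposited values were regularized logarithms to base 2, in which the value of each library is drawn towards the gene's mean over all libraries. The numbers of reads behind them were recovered for 1875 of 1928 genes with values, all 10 members included, and both kinds of number are given. Over these genes the WT libraries held 1015234 and 831759 reads and the ATF4 KO libraries 41056 and 50235, which are totals over the genes analysed here and not the depth of the whole libraries. By these totals ATF4 KO 1 and ATF4 KO 2 had 4.04% and 4.95% of the reads of WT 1. By the size factors with which the authors' values were normalised, 21.7, 17.2, 0.0360 and 0.0372, they had 0.165% and 0.171%. Reads were found for 1691 and 1667 genes in WT and for 337 and 356 genes in ATF4 KO, and 10 genes held 50% of the reads in each ATF4 KO library against 97 and 90 genes in WT. Reads of genes on a list drawn up for LT-HSCs (3 of 12 in the table) made up 1.99% and 2.01% of WT reads. In ATF4 KO they made up 0.0219% and 0.0159%. Cd34 alone made up 1.80% and 1.84% of WT reads and supplied all of the list's ATF4 KO reads, 9 and 8. The shares of the list thus rest mostly on Cd34 and do not measure LT-HSC identity. Slamf1 made up 0.0357% and 0.0224% of WT reads and Gfi1b 0.156% and 0.147%. Slamf1 and Gfi1b were at 0 reads in both ATF4 KO libraries. Among myeloid markers, Fcer1g had 1083 and 982 reads in WT and 1569 and 901 in ATF4 KO. Its share was 0.107% and 0.118% in WT and 3.82% and 1.79% in ATF4 KO, above WT in both libraries. Fcgr3 had 627 and 665 reads in WT and 2 and 0 in ATF4 KO. Cxcr2 had 133 and 160 in WT and 0 in ATF4 KO. By share, Fcgr3 and Cxcr2 were below WT in both ATF4 KO libraries. The 6 T and NK cell markers in the table had 325 and 152 reads in WT and 0 in both ATF4 KO libraries. The 2 erythroid and megakaryocyte markers had 1536 and 1059 in WT and 1 and 0 in ATF4 KO. On the B cell list, Cr2 (2 and 1 reads in WT) and Fcrla (57 and 25) had 0 in ATF4 KO. Ptprc, on the same list but also read in WT LT-HSCs (5013 and 3424), had 0 and 22 in ATF4 KO. The part that these markers, the depth or the uneven reads play in the results below was not tested, and in bulk samples fewer cells of a type and less RNA per cell cannot be told apart. Atf4, on chromosome 15, was not analysed here, and its level gives no check of the genotypes.

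On the deposited scale none of the 10 genes passed the threshold between ATF4 KO and WT (limma, adjusted p below 0.05). Of the 1199 genes tested 47.0% passed it, 24.6% higher and 22.4% lower. These genes are not a like background. Every member held at least 1 ATF4 KO read, but for 1399 of the 1928 genes with values both ATF4 KO libraries were at 0. At 0 the transform gives both libraries nearly the same value, as described below. The 47.0% therefore does not show that the members were unusually unchanged, and the share among genes with ATF4 KO reads was not tested. The number of members with an unadjusted p under 0.05 was also 0. With voom on the recovered reads it was 0 past the threshold and 1 by unadjusted p, under either of 2 scalings. The members' differences had a median of 1.003 on the log2 scale, against 0.02 over all tested genes, with 7 positive and 3 negative. The median turned to -0.093 without ATF4 KO 1 and to -3.30 with voom on the reads scaled by their totals. All 4 ribosomal proteins were positive, 1 of the 2 translation factors, and 2 of the 4 nucleolar factors. The values differed widely between the 2 ATF4 KO libraries: the root mean square SD over all tested genes was 1.39 in ATF4 KO and 0.18 in WT. An exact permutation test of any single value, 2 libraries against 2, cannot give a two-sided p below 0.333.

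**Figure D1:**
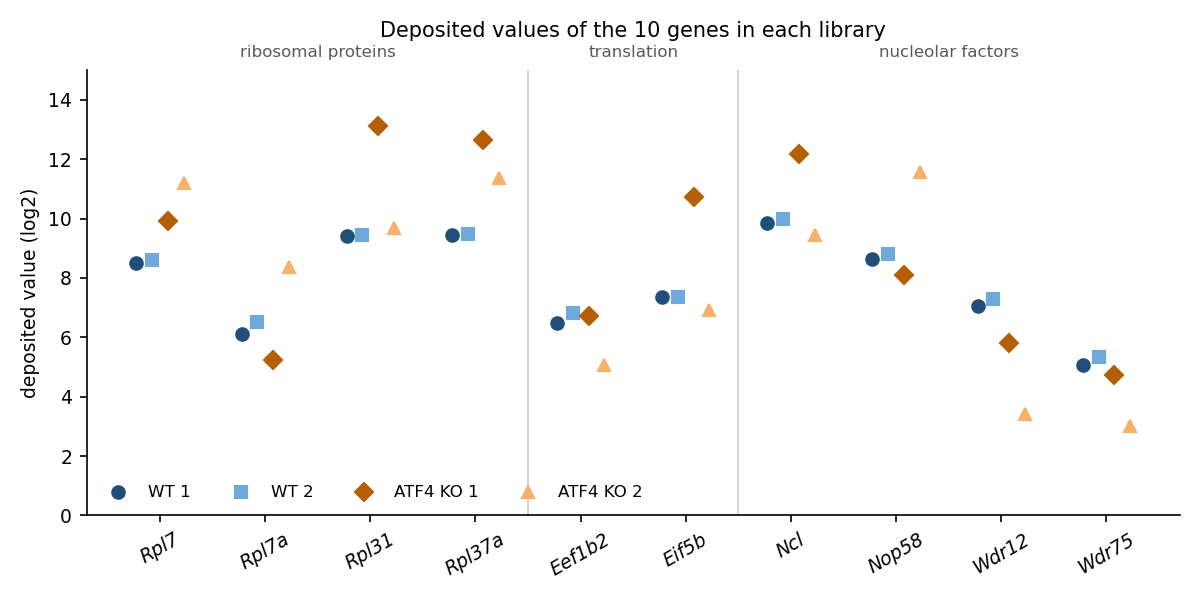
Deposited log2 values (vertical axis) of the 10 genes in each of the 4 libraries, 1 point per library. The WT points lie close together for every gene, while the ATF4 KO points lie apart, from above 13 for Rpl31 down to 3.01 for Wdr75.

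Among the ribosomal proteins, Rpl37a, whose product sits in the large subunit as a zinc-binding protein, had the largest positive difference of the 10 genes. The 4 deposited values were 9.46 and 9.47 in WT and 12.64 and 11.37 in ATF4 KO. Both ATF4 KO libraries lay above both WT libraries, as they did for 40.5% of all tested genes. That share includes genes with no ATF4 KO read, whose ATF4 KO values the transform sets, and is not a like background. ATF4 KO minus WT came to 2.54 ± 0.83 (SE; adjusted p = 0.108 by limma). The reads were 2048 and 1741 in WT and 525 and 140 in ATF4 KO. As a share of the reads recovered, these were 0.202% and 0.209% in WT and 1.28% and 0.279% in ATF4 KO, so that both ATF4 KO libraries were above WT by share as well. The exact 95% binomial intervals of the shares, which cover counting error only, ran from 0.234% to 0.329% in ATF4 KO 2 and up to 0.219% in WT 2. Rpl37a was the only member above WT in each ATF4 KO library by share.

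Rpl31, at the exit of the tunnel through which the new protein leaves the ribosome, was high in 1 ATF4 KO library. Its deposited values were 9.40 and 9.45 in WT, 13.13 in ATF4 KO 1 and 9.68 in ATF4 KO 2. The groups did not overlap, but ATF4 KO 2 lay just above WT. Limma put ATF4 KO minus WT at 1.98 ± 1.56 (SE, adjusted p = 0.377), and it was 0.25 without ATF4 KO 1. The reads were 2897 and 2751 in WT and 1792 and 12 in ATF4 KO, with 99.3% of the ATF4 KO reads in ATF4 KO 1. In that library Rpl31 held 4.36% of the reads and ranked 8 among all genes by reads. In ATF4 KO 2 its share was 0.0239%, below the WT shares of 0.285% and 0.331%.

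Rpl7, which binds ribosomal RNA in the large subunit, was above WT in both ATF4 KO libraries on the deposited scale and below WT in both by share. On the deposited scale it was at 8.52 and 8.60 in WT and 9.90 and 11.19 in ATF4 KO. ATF4 KO minus WT came to 1.99 ± 0.79 (SE; adjusted p = 0.151 by limma). The reads were 3458 and 3225 in WT and 41 and 164 in ATF4 KO. Its share was 0.341% and 0.388% in WT, 0.0999% in ATF4 KO 1 and 0.326% in ATF4 KO 2, where the interval of 0.278% to 0.380% reached into the WT range.

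For Rpl7a, another protein of the large subunit, the groups overlapped. The deposited values were 6.11 and 6.51 in WT, 5.25 in ATF4 KO 1 and 8.35 in ATF4 KO 2. The ATF4 KO libraries thus lay on either side of WT. Limma put ATF4 KO minus WT at 0.49 ± 1.35 (SE, adjusted p = 0.769), and it turned to -1.06 without ATF4 KO 2. The reads were 1420 and 1551 in WT and 1 and 15 in ATF4 KO, so that the values of ATF4 KO rested on 16 reads.

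Summed over the 4 ribosomal proteins, the share of reads was 0.968% and 1.11% in WT, 5.75% in ATF4 KO 1 and 0.659% in ATF4 KO 2. It was thus above WT in the first ATF4 KO library and below WT in the second. Rpl31 alone supplied 1792 of the 2359 reads of ATF4 KO 1, whereas Rpl7 and Rpl37a supplied most of the 331 reads of ATF4 KO 2.

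**Figure D2:**
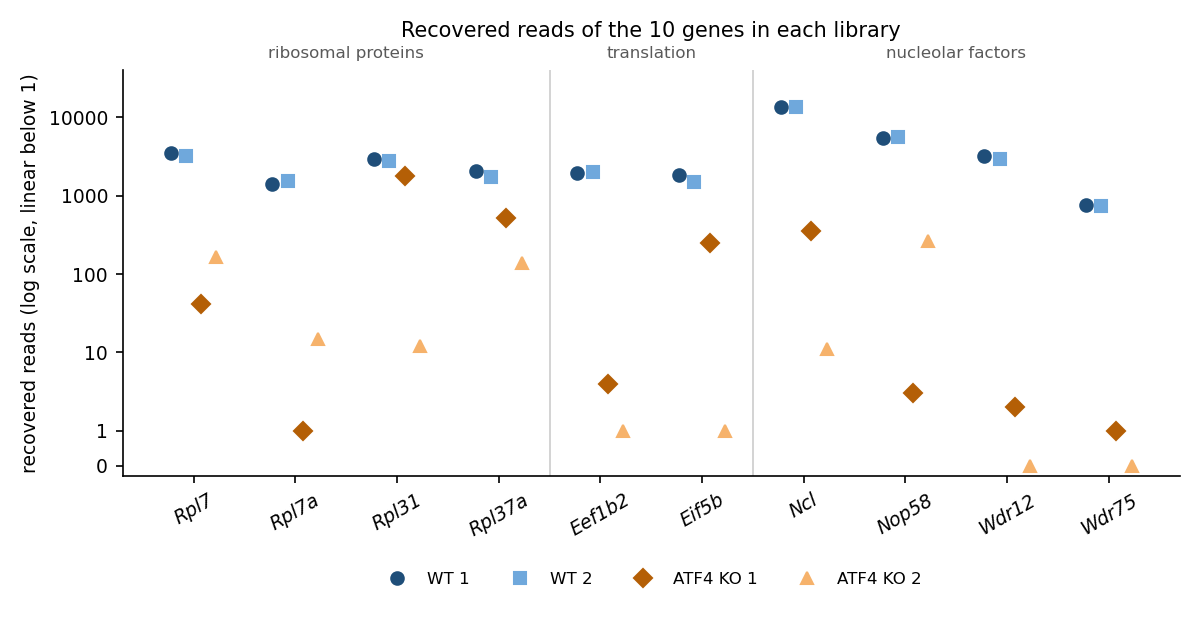
Recovered reads (vertical axis, logarithmic above 1 and linear below) of the 10 genes in each library. WT reads of a gene differ little between the libraries, while ATF4 KO reads range from 0 to 1792 and mostly sit in 1 of the 2 libraries.

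The translation factors did not move together. Eef1b2 encodes the subunit that recharges elongation factor 1 alpha with GTP. Its deposited values were 6.48 and 6.82 in WT and 6.73 and 5.08 in ATF4 KO, so that ATF4 KO 1 lay within the WT range and ATF4 KO 2 below it. ATF4 KO minus WT came to -0.75 ± 0.79 (SE; adjusted p = 0.482 by limma), and it was 0.08 without ATF4 KO 2. The reads were 1972 and 2016 in WT and 4 and 1 in ATF4 KO. Its share was 0.194% and 0.242% in WT and 0.00974% and 0.00199% in ATF4 KO, with upper limits of 0.0249% and 0.0111% on counting error alone.

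Eif5b encodes the GTPase that joins the ribosomal subunits at the start codon. The deposited values were 7.35 in both WT libraries, 10.74 in ATF4 KO 1 and 6.91 in ATF4 KO 2. ATF4 KO 1 was far above WT and ATF4 KO 2 below it. Limma put ATF4 KO minus WT at 1.47 ± 1.67 (SE, adjusted p = 0.508), and it turned to -0.44 without ATF4 KO 1. The reads were 1845 and 1478 in WT, 252 in ATF4 KO 1 and 1 in ATF4 KO 2.

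Among the nucleolar factors, Ncl and Nop58 were each high in a different ATF4 KO library. Ncl encodes nucleolin, an abundant protein of the nucleolus that acts in the transcription and first processing of ribosomal RNA. Its deposited values were 9.85 and 9.99 in WT, 12.17 in ATF4 KO 1 and 9.45 in ATF4 KO 2. The groups overlapped, with ATF4 KO 1 above WT and ATF4 KO 2 below it. ATF4 KO minus WT came to 0.89 ± 1.29 (SE; adjusted p = 0.590 by limma), and it turned to -0.47 without ATF4 KO 1. Ncl had 13621 and 13438 reads in WT, where it ranked 5 among all genes in each library, and 356 and 11 in ATF4 KO, where it ranked 27 and 101. Its share was 1.34% and 1.62% in WT, 0.867% in ATF4 KO 1 and 0.0219% in ATF4 KO 2.

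Nop58 was at 8.64 and 8.80 in WT, 8.09 in ATF4 KO 1 and 11.58 in ATF4 KO 2 on the deposited scale. It thus showed the opposite split to that of Ncl. Limma put ATF4 KO minus WT at 1.12 ± 1.56 (SE, adjusted p = 0.578), and it turned to -0.63 without ATF4 KO 2. The reads were 5463 and 5550 in WT, 3 in ATF4 KO 1 and 266 in ATF4 KO 2. By share, 0.530% in ATF4 KO 2 stood just under the 0.538% of WT 1, within the interval of 0.468% to 0.597%.

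Wdr12 and Wdr75 were the members with both ATF4 KO libraries below both WT libraries on the deposited scale, as 40.7% of all tested genes were. The 40.7% likewise includes genes with no ATF4 KO read and is not a like background. WDR12 is a subunit of the complex with PES1 and BOP1 that matures the large subunit. Its deposited values were 7.07 and 7.27 in WT and 5.81 and 3.41 in ATF4 KO, and the difference was -2.56 ± 1.05 (SE; adjusted p = 0.158 by limma). It was -3.76 without ATF4 KO 1 and -1.36 without ATF4 KO 2. The reads were 3189 and 2948 in WT and 2 and 0 in ATF4 KO. The share of Wdr12 was 0.314% and 0.354% in WT, and 0 of the 50235 reads of ATF4 KO 2 allows a share of up to 0.00597%.

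WDR75 belongs to the machinery that binds the ribosomal RNA precursor and prepares the small subunit. The deposited values of Wdr75 were 5.06 and 5.34 in WT and 4.74 and 3.01 in ATF4 KO. ATF4 KO minus WT came to -1.32 ± 0.75 (SE; adjusted p = 0.253 by limma), and it was -2.19 without ATF4 KO 1 and -0.46 without ATF4 KO 2. With 758 and 745 reads in WT and 1 and 0 in ATF4 KO, it had the fewest reads of the 10 genes. The 4 nucleolar factors together made up 2.27% and 2.73% of the reads in WT, and 0.882% and 0.551% in ATF4 KO. Both ATF4 KO libraries were thus below WT by share. By size factors their summed ATF4 KO reads were instead 7.34 times those expected at the WT level. By read totals the ratio was 0.280, against a median of 0.0122 over the 310 genes with a WT level at or above that of Wdr75.

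**Figure D3:**
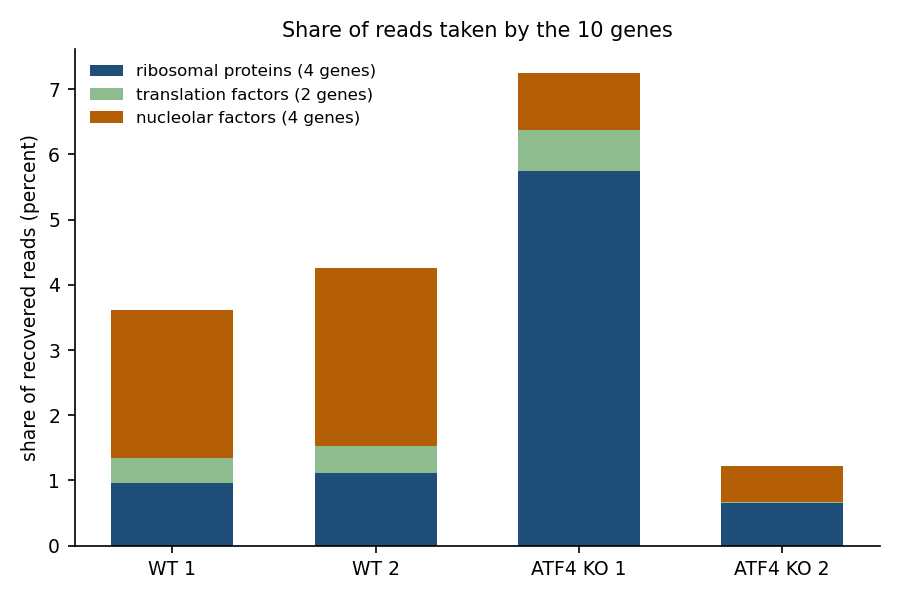
Share of each library's recovered reads (percent, vertical axis) taken by the members, as stacked bars for the 4 ribosomal proteins, 2 translation factors and 4 nucleolar factors. The total was 3.61% and 4.26% in WT, 7.25% in ATF4 KO 1, mostly ribosomal proteins, and 1.21% in ATF4 KO 2.

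Reads of a member in ATF4 KO mostly came from 1 library. Of the 7 members with at least 10 ATF4 KO reads, 5 had over 90% of them in 1 library, against 80.6% of the 160 genes with that many reads. ATF4 KO 1 was the richer library for Rpl31, Eif5b and Ncl, and ATF4 KO 2 for Rpl7a and Nop58. Rpl7 and Rpl37a were more even, with 80.0% and 78.9% of their ATF4 KO reads in 1 library. At least 1 ATF4 KO read was seen for all 10 members and a read in both libraries for 8. Among the 310 genes with a WT level at or above that of Wdr75, 82.6% had an ATF4 KO read and 43.5% had reads in both.

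Of the 10 members 4, Rpl7, Rpl7a, Ncl and Nop58, lay on different sides of the WT level depending on how the libraries were scaled. At the WT level and the size factors, 137 reads of the 10 genes were expected in the ATF4 KO libraries together, and 3587 were seen, a ratio of 26.1. At the WT share and the read totals 3594 were expected, a ratio of 0.998. By role the ratios were 74.1 and 2.83 for the ribosomal proteins, 18.6 and 0.710 for the translation factors, and 7.34 and 0.280 for the nucleolar factors, by size factors and by read totals in that order. Single genes ran from 168 (95% Poisson interval 160 to 176, counting error only) for Rpl31 to 0.172 (0.0208 to 0.620) for Wdr12 by size factors. By read totals the same genes were at 6.41 (6.12 to 6.72) and 0.00655 (0.000794 to 0.0237). ATF4 KO 1 carried the value of Rpl31, whose ratio by size factors was 339 in that library, against 12 reads observed and 5.46 expected in ATF4 KO 2. By read totals its ratio was 14.2 in ATF4 KO 1 and 0.0775 in ATF4 KO 2. Ratios above 1 were found for 7 members by size factors and for 3, Rpl31, Rpl37a and Eif5b, by read totals. Among the 310 genes 24.8% and 14.5% were above 1, and the median ratio was 0.321 and 0.0122, against 9.96 and 0.380 over the members. The 14 other genes of ribosome assembly and translation, described below, were mostly not above 1, some at lower WT levels than any member. By size factors only Eif4e2 (130) and Nifk (1.86) were above 1. By read totals only Eif4e2 (4.97) was above 1, with Nifk at 0.0711.

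The 2 scalings differ by nearly the same factor for every gene, so the rank of a gene is nearly the same under both by construction. Ranked from the highest ratio among the 310 genes, Rpl31 was at 13, Rpl37a at 22, Eif5b at 44, Rpl7 at 49, Nop58 at 51, Ncl at 58 and Rpl7a at 69 on either scale. Eef1b2 was at 91 by size factors and 90 by read totals, Wdr75 at 141 and Wdr12 at 238. In voom fits to the reads the median of all genes was 1.25 with size factors and -3.45 with read totals (log2, ATF4 KO minus WT). Relative to that median Rpl37a was at 5.0 and 5.06, Rpl31 at 3.60 and 3.87, Rpl7 at 2.43 and 2.35, and Wdr12 at -3.67 and -3.83.

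**Figure D4:**
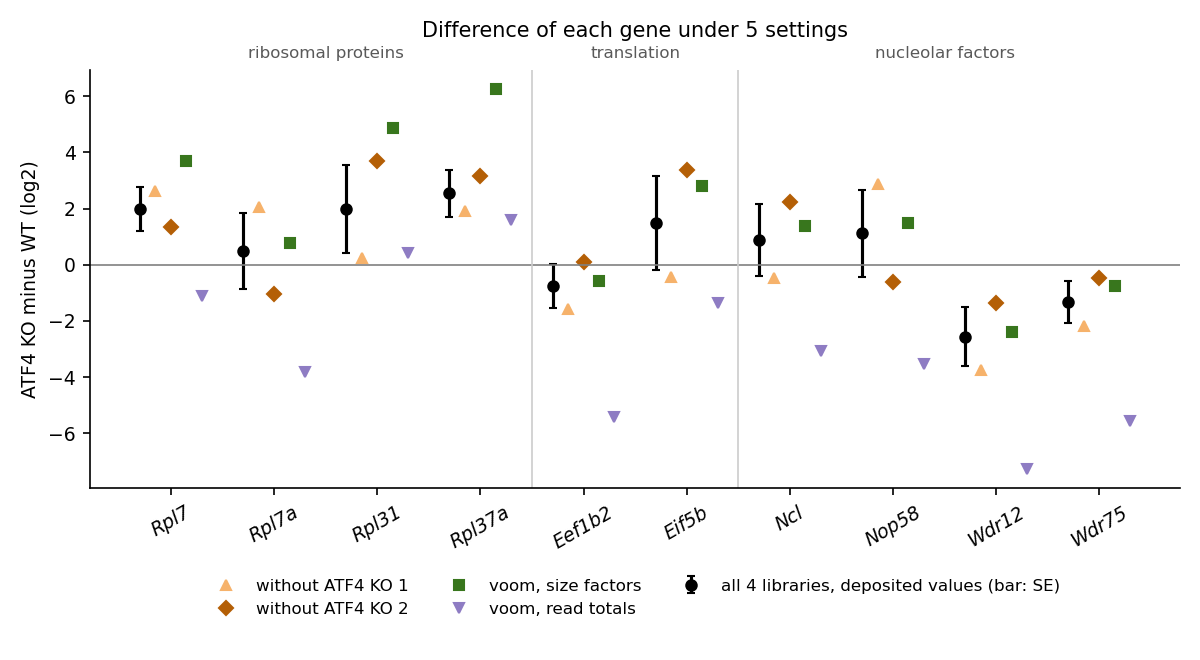
Difference ATF4 KO minus WT (log2, vertical axis) of each gene with all 4 libraries (black, bar: standard error), without either ATF4 KO library, and by voom on reads with size factors or read totals. Rpl31 and Rpl37a stay above 0 and Wdr12 and Wdr75 below 0 under these 5 settings, while the other 6 genes change sign.

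After division by the size factors, all 10 genes had more reads in WT 2 than in WT 1, by 1.01 times (Eif5b) to 1.38 times (Rpl7a). Among 645 genes with at least 8 normalised reads, 54.3% were higher in WT 2, and their median ratio was 1.02, against 1.22 over the members. Levels between genes were compared in WT as normalised reads per kilobase of the shortest principal transcript in GENCODE M21. Rpl31 was highest at 302 (274 and 329 in the WT libraries). Rpl37a followed at 175 (169 and 182), Nop58 at 168 (147 and 189) and Rpl7 at 149 (137 and 162), where Nop58 overlapped both of the others. Ncl at 86.0 and Rpl7a at 85.2 could not be ordered by the spread of their libraries. Nor could Wdr12 at 55.9 and Eef1b2 at 53.7. These levels depend on the transcript taken, of 8.20 kb for Ncl and 7.80 kb for Eif5b against 0.914 kb for Rpl7a. Before division by length Ncl had the most normalised WT reads of the members, with a mean of 705. Whether shorter transcripts supplied the reads was not tested. Wdr75 at 13.3 (11.8 and 14.7) and Eif5b at 10.97 (10.89 and 11.05) were lowest. Per kilobase of all annotated exons, which include retained introns, Rpl31 and Rpl37a remained the first and second, Nop58 moved to 7 of 10, and Eif5b and Wdr75 were still the lowest.

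The deposited WT values were not levels of WT alone. For Rpl37a the mean deposited WT value, 9.46, was 2.85 above the log2 of its normalised WT reads. For Rpl31 the same gap was 2.22, for Rpl7 1.12 and for Eif5b 0.93. It was -0.05 for Eef1b2, -0.15 for Wdr12 and -0.09 for Wdr75, the members with 5 reads or fewer in ATF4 KO. Over genes with more than 8 normalised WT reads, the median gap was 1.66 in the 78 genes with 100 or more ATF4 KO reads and -0.19 in the 258 genes with none. For genes with many ATF4 KO reads, a difference on the deposited scale is therefore smaller than the log2 ratio of reads by size factors. By read totals this need not hold. Rpl37a was at 2.54 on the deposited scale and at 1.61 by voom with read totals.

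Other genes of ribosome assembly and translation were few in the table. Of lists of 83 other ribosomal proteins, 74 other translation factors and 159 other assembly factors, 0, 2 and 12 genes were present, and all 14 were tested. Past the threshold 1 was higher, 4 were lower and 9 were not called, beside the 24.6% higher and 22.4% lower of all tested genes, and the median difference was -1.76. All 5 genes past the threshold had no ATF4 KO read. In such genes the size and the direction of the deposited difference are set by the transform. It gives 0 reads a value between the gene's mean over the libraries and a fixed point. This point was 2.36 in ATF4 KO 1 and 2.31 in ATF4 KO 2. Both ATF4 KO libraries thus get nearly the same value, with SDs from 0.0016 in Utp14b to 0.0235 in Nvl. The p-values of such genes therefore reflect the transform and do not measure agreement between the ATF4 KO libraries.

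Eif2d, a factor for initiation and ribosome recycling, had 1337 and 1118 reads in WT and 0 in ATF4 KO (difference -2.85, limma, adjusted p = 0.00273). With 3 reads over the pair as the limit of 0, it was at least 1.54-fold lower by size factors and at least 40.5-fold lower by read totals, on counting error only. Eif4e2, which binds the mRNA cap, had 1919 and 1625 reads in WT, 1 in ATF4 KO 1 and 871 in ATF4 KO 2. Its deposited values were 8.35 and 8.37 in WT and 8.14 and 11.95 in ATF4 KO, with a difference of 1.68 (limma, adjusted p = 0.459).

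Of the assembly factors, Nvl, an ATPase of large subunit maturation, had 1873 and 1427 reads in WT and 0 in ATF4 KO (difference -3.21, limma, adjusted p = 0.00304), at least 2.06-fold lower by size factors and at least 54.2-fold lower by read totals. Surf6, a nucleolar protein, had 811 and 648 reads in WT and 0 in ATF4 KO (difference -2.18, limma, adjusted p = 0.00226). Taf1a, a subunit of the selectivity factor of RNA polymerase I, had 551 and 382 reads and 0 (difference -1.59, limma, adjusted p = 0.00276). At the size factors fewer than 3 reads would have been seen for Surf6 (2.75) and Taf1a (1.74), so that no decrease was detectable on that scale. By read totals 72.0 and 45.7 reads were expected, and the genes were at least 24.0-fold and 15.2-fold lower, on counting error only. Utp14b, at 29 reads in each WT library and 0 in ATF4 KO, was called higher by 0.07 (limma, adjusted p = 0.00303).

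Near-identical copies limit what can be said of the ribosomal protein genes. Pseudogenes that matched 50% or more of the mRNA with an identity of 90% or more numbered 81 for Rpl7a, 25 for Rpl31, 10 for Rpl7 and 4 for Rpl37a in GENCODE M21, and 0 for the other 6 members. The reads of these 4 genes are uncertain to the extent that the authors' counting split or dropped reads that match several copies. In the table there were 6 copies of Rpl7a and 4 of Rpl31, and they held few reads: 1 and 0 in WT for Rpl7a, and 9 and 6 in WT with 1 and 0 in ATF4 KO for Rpl31. Of 21 rows named as ribosomal protein pseudogenes, 14 had reads and 6 a read in ATF4 KO. The 3 with the highest mean were Rpl28-ps1 (109 and 110 reads in WT, 0 and 15 in ATF4 KO), Rpl10a-ps1 (60 and 81, 0 and 18) and Rpl5-ps1 (51 and 42, 3 and 2).

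Other protein-coding genes overlap 4 of the members. Tbc1d8 (569 and 356 reads in WT) meets Rpl31, Ndufs1 (2257 and 1817) Eef1b2, Rev1 (126 and 107) Eif5b, and Carf (241 and 175) Wdr12, each on the opposite strand. Their ATF4 KO reads were 0 in both libraries, except 2 and 3 for Ndufs1. Whether the counting used strand is not given in the sources used here, and without it reads of overlapping genes cannot be told apart.

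The genes nearest to the mean profile of the 4 ribosomal proteins, by Euclidean distance over the 4 deposited values, were Septin2, Gm15427 and Prrc2c. The profile was at 8.37 and 8.51 in WT and 10.23 and 10.15 in ATF4 KO. It averages unlike genes, with ATF4 KO values from 5.25 and 8.35 in Rpl7a to 13.13 and 9.68 in Rpl31. Nearness to it is therefore not likeness to any 1 of the 4 genes. Septin2, a GTP-binding protein of the cytoskeleton, was at a distance of 0.503 (8.56 and 8.55 in WT, 10.57 and 9.83 in ATF4 KO). Gm15427 was at 1.39 (8.29 and 8.35, 11.44 and 10.79), with 993 and 1032 reads in WT and 202 and 108 in ATF4 KO. Prrc2c, whose product binds RNA, was at 1.65 (8.53 and 8.50, 11.84 and 9.83).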

How the data were processed

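Polyadenylated RNA of sorted LT-HSCs was measured in 2 WT and 2 ATF4 KO libraries, grouped by their titles. Per the submitters' processing notes, HISAT2 2.2.1, featureCounts, DESeq2 and GRCm38 were used, in an order not given. The authors deposited 1 log2 value per gene and library. The last line was incomplete and was left out, which left 4167 genes, 2239 of them at 0 throughout. The members and lists were chosen with earlier results of these data known.

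The deposited log2 values met the equations of a regularized logarithm (ridge weight 0.1645), which were solved for each gene's 4 reads and dispersion. Reads were accepted within 0.02 of whole numbers at residuals under 1e-06, for 1875 of 1928 genes, 517 of them with ATF4 KO reads. In the members the largest distance from a whole number was 0.0041, and that of the next best solution at least 0.124. The solver was tested on simulated data.

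Limma 3.58.1 (R 4.3.3, statmod 1.5.0) was fitted to the deposited values of genes at 1 or more in at least 2 libraries, with trend and robust options, and p-values were adjusted over all tested genes by the method of Benjamini and Hochberg (threshold 0.05). Expected reads were the WT mean of normalised reads times the summed ATF4 KO size factors. Intervals are exact at 95%, and 3 reads were taken as the limit of 0. They cover counting error only, since amplified reads do not each stand for a molecule. Of the listed genes, 98.8% matched GENCODE M21. Copies were searched with blastn 2.17.0, and the scripts used numpy 2.4.6, scipy 1.17.1, pandas 2.3.3 and numba 0.67.0. Named beyond the members are up to 4 genes of lowest p from each of 3 further lists, the 3 ribosomal protein pseudogenes of highest mean and the 3 genes nearest to the ribosomal protein profile. Alternatives were no filter, a lowest value of 3, no trend, a replicate block, each library left out, voom on reads, and other expected reads. The scaling by read totals was chosen after the values were seen. One marker gene and one sequence match are not reported here.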

Additional observations from a re-analysis of the deposited data

How the results depend on the processing

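Of 100 alternative member differences, 76 kept their direction and stayed short of the threshold, 10 changed sign and 18 passed the threshold, 4 of them with a changed sign. The 18 all came from leaving out an ATF4 KO library, where the spread is taken from WT alone, so their p-values carry no weight. With a library left out, Eif5b ran from -0.44 to 3.39 and Ncl from -0.47 to 2.25, lowest without ATF4 KO 1, and Rpl7a from -1.06 to 2.04, Nop58 from -0.63 to 2.86 and Eef1b2 from -1.57 to 0.080, which changed sign without ATF4 KO 2. With voom and read totals, Rpl7 was at -1.10, Rpl7a at -3.83, Eif5b at -1.35, Ncl at -3.06 and Nop58 at -3.53, and the cause was not tested. The median over the members was -3.30 with voom and read totals, and -0.093 to 1.08 with a library left out, against 1.003. Across fits with a library left out, 0 to 10 members, 5 to 13 of the other ribosome and translation genes and 634 to 884 of all genes passed, the highest without ATF4 KO 1. Of all genes 1315 passed with no filter, 255 with a lowest value of 3, 332 with no trend and 300 with voom and size factors, against 563. The higher calls were 15 of 255, 63 of 332, 229 of 300, and 12 of 558 with voom and read totals, against 295 of 563. Same-numbered libraries did not deviate together (correlation -0.08), and the numbers pair nothing in the labels. With a replicate block 510 genes and 0 members passed, 5 of the other genes, and no member changed direction.

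For the 10 members summed, observed over expected reads was 6.72 with expected reads multiplied by the yield of genes at WT values of 3 to 6, 29.1 and 23.7 from WT 1 or WT 2 alone, 44.1 and 8.74 in ATF4 KO 1 or ATF4 KO 2 alone, and 0.998 by read totals, against 26.1. Single genes crossed 1 for Rpl7 (0.617), Rpl7a (0.107), Ncl (0.272) and Nop58 (0.489) by read totals and for Rpl7a (0.722) with the yield. In ATF4 KO 1 alone Rpl7a (0.357) and Nop58 (0.290), and in ATF4 KO 2 alone Eif5b (0.315) and Ncl (0.420), were below 1. Depth limits the members most where the fewest reads were expected. For Wdr75, 2.86 reads were expected by size factors and 1 was seen over both ATF4 KO libraries. Wdr12 and Eef1b2 had 2 and 5 reads over both, with 11.6 and 7.61 expected by size factors and 305 and 199 by read totals.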
